A study of Rattus norvegicus with 12 samples.

Results

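Small leucine-rich proteoglycans were described across the marrow cell cultures of a rat study of spinal cord injury (SCI) and functional electrical stimulation of paralysed muscle (FES). The members were decorin (Dcn), biglycan (Bgn), asporin (Aspn), fibromodulin (Fmod), lumican (Lum), osteomodulin (Omd), proline arginine-rich end leucine-rich repeat protein (Prelp) and osteoglycin (Ogn). They were found by gene symbol, and each had 1 probe, which gave 8 of the 22523 probes of an Illumina rat expression array. All animals were male Wistar-Hannover rats, and cells of their leg-bone marrow were grown into bone-forming osteoblasts or bone-resorbing osteoclasts.

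There were 3 treatments. In SCI+FES rats the spinal cord was transected, a stimulator was implanted in week 14, and the muscle was made to contract from week 16, on 7 days and for 60 minutes each. In SCI rats the cord was transected and the implant surgery was done in week 14 without inserting a stimulator, with collection at week 17. Sham rats had the same first operation without transection and were collected 12 to 14 weeks after it. Ages, and the collection week of SCI+FES rats, were not stated. Osteoblast cultures were labelled day 10, the SCI+FES and sham osteoclast cultures day 3, and the SCI osteoclast cultures carried no day. RNA of 3 to 4 rats was pooled for each treatment and culture type, and each of the 6 pools was run on 2 arrays. The sample descriptions give 1 number to the SCI osteoclast, SCI+FES osteoclast and SCI+FES osteoblast samples, with the letter R on the SCI and L on the SCI+FES osteoclast ones, another to both sham cultures and a different one to the SCI osteoblast samples. What these numbers mean is not stated, so whether pools came from separate rats is not known. Duplicate arrays measure the same RNA, and n is therefore 1 pool for every treatment and culture type.

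Small leucine-rich proteoglycans are secreted proteins built of leucine-rich repeats that bind collagen fibrils and govern their spacing and diameter. Many carry sugar chains: chondroitin or dermatan sulfate in Dcn and Bgn, keratan sulfate in Lum, Fmod and Omd. Several also bind growth factors such as TGF-beta, and in bone they belong to the matrix that osteoblasts lay down before it mineralizes.

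Between 33.7% and 38.3% of probes were detected per array (detection p of at most 0.01), and duplicate arrays correlated at r = 0.992 to 0.995 over all probes, with a duplicate SD of 0.11 on the log2 scale. Levels below are normalized log2 intensities, and levels of different genes are not comparable because each probe binds with its own strength. In the osteoblast cultures 11 of 13 matched osteoblast markers were detected in at least 1 pool. By pool, both arrays detected 5 of the 13 in SCI+FES, 11 in SCI and 9 in sham. Runx2 and Sp7, the defining transcription factors, were detected in no osteoblast pool. All 14 monocyte and macrophage markers were detected in every osteoblast pool. In the osteoclast cultures 10 or 11 of 11 osteoclast markers were detected, and in the osteoblast cultures 8 (SCI+FES), 7 (SCI) and 10 (sham) of these markers. Their summed level was 9581 to 15456 on osteoblast arrays and 82373 to 88911 on osteoclast arrays.

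Among the members, Ogn, Omd and Aspn lie next to each other on rat chromosome 17, in that order in the RefSeq gene table (GRCr8), and Dcn and Lum are neighbours on chromosome 7. Prelp and Fmod are neighbours on chromosome 13, and Bgn lies on chromosome X. The promoters of the chromosome 17 genes are shown because all 3 were lower in SCI+FES osteoblast cultures than in SCI ones, and that of Lum because it hardly differed there. Each sequence runs 5' to 3' from 250 bases before to 50 bases after the gene start, from RefSeq on GRCr8, where 5 of the 8 members were matched: Ogn at chr17:15258946-15259245 (minus strand), Omd at chr17:15274821-15275120 (minus strand), Aspn at chr17:15310420-15310719 (minus strand) and Lum at chr7:34245456-34245755 (plus strand). Capitals mark matches on either strand to 6 motifs.
Ogn: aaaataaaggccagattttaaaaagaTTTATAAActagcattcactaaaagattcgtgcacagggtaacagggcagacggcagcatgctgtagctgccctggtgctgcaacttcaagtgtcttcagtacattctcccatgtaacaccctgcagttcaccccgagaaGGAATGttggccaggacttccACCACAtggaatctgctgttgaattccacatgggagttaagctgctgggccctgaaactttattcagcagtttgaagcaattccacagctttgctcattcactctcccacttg
Omd: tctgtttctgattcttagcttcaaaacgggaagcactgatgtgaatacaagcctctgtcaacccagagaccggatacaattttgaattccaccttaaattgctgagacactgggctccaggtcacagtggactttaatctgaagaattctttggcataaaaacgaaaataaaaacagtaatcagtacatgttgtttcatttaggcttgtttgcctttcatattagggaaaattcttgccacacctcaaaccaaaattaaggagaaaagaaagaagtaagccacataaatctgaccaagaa
Aspn: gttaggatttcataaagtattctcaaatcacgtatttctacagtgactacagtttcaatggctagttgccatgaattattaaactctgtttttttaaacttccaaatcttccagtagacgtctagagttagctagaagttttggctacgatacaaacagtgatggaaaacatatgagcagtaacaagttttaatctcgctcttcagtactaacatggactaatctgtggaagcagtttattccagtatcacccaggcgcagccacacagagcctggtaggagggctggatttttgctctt
Lum: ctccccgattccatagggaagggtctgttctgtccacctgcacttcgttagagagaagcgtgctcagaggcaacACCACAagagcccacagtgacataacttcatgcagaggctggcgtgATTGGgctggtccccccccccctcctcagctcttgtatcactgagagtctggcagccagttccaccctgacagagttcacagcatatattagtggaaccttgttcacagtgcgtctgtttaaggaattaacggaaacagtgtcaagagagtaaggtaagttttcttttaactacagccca
The motifs were searched on both strands, and the share of 33469 rat promoters of the same length that held each was found. The core promoter box TATAAA was held by 14.2%, the Runx core TGTGGT by 17.3% and the TEAD site GGAATG by 14.2%. The AP-1 site TGANTCA was held by 7.33%, the box CCAAT by 37.5% and the Sp1 site GGGCGG by 33.1%. The Ogn window held TATAAA on both strands in overlapping copies at bases -224 to -217 from the start. It also held GGAATG at -84 to -79 and TGTGGT on the opposite strand at -63 to -58. The Lum window held TGTGGT on the opposite strand at -176 to -171 and CCAAT on the opposite strand at -130 to -126. None of these letters occurred in the Omd or Aspn windows, whose GC content was 37.7% and 39%, against 46% for Ogn and 50.7% for Lum. A match describes letters and not a bound site.

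**Figure D1:**
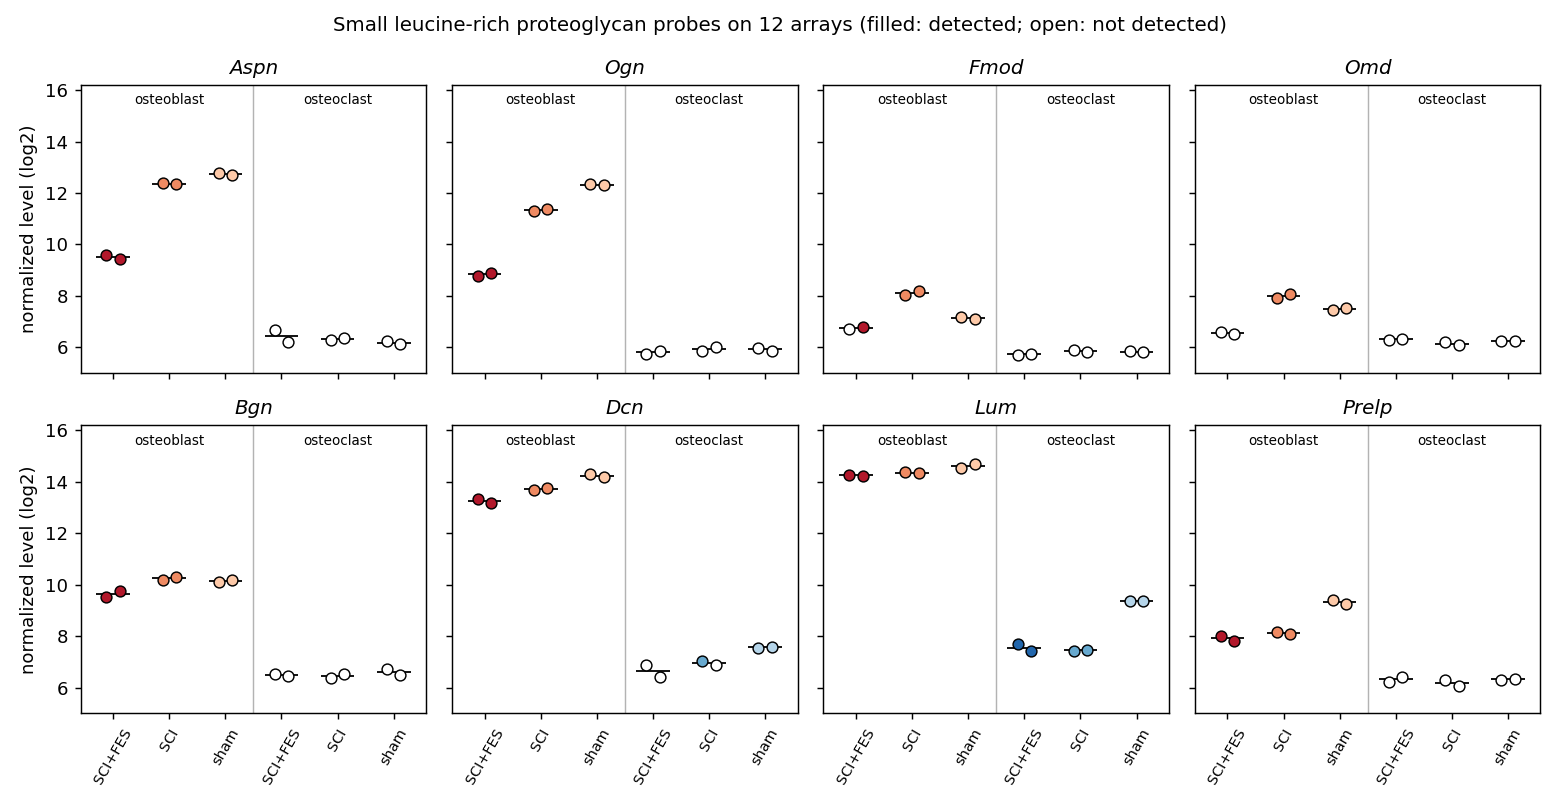
Normalized log2 level of each of the 8 probes on each of the 12 arrays, with osteoblast pools left and osteoclast pools right of the grey line, each in the order SCI+FES, SCI, sham. Points are arrays (filled where detected, open where not) and bars are pool means. Aspn and Ogn show a wide drop at SCI+FES within the osteoblast pools, where Lum is nearly level.

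The first comparison was between culture types, osteoblast against osteoclast, over the 6 pool means (3 against 3). Every member was higher in osteoblast cultures, by measured differences of 1.11 to 6.69 on the log2 scale. By limma with Benjamini-Hochberg adjustment over the 9102 probes tested, all 8 passed an adjusted p of at most 0.05 with at least a 2-fold difference, where 6.56% of all probes were called higher and 4.86% lower. Because 6 of the 8 were detected on no osteoclast array, they entered the test only through the osteoblast pools and had to differ. The adjusted p-values of these 6, given below, are therefore no support for a difference. In bulk cultures, fewer cells of a type and less RNA per cell cannot be told apart, nor can culture type and culture day here. Of stromal and fibroblast genes 12 of 13 were higher in osteoblast cultures and none lower (median 3.13), as were 6 of 7 smooth muscle genes. Of 11 tested osteoblast markers 4 were higher and none lower (median 2.03), and of 14 macrophage markers 5 were higher and 4 lower. Many of the stromal, smooth muscle and osteoblast genes passed detection in no osteoclast pool. Such genes likewise entered the test only through the osteoblast pools, and their calls are no support for a difference. The part of these cells was not tested.

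Among the members that carry chondroitin or dermatan sulfate, Dcn, which binds type I collagen and TGF-beta, had log2 levels of 13.33 and 13.18 on the SCI+FES, 13.67 and 13.75 on the SCI and 14.29 and 14.18 on the sham osteoblast arrays. On the osteoclast arrays Dcn had 6.88 and 6.40 (SCI+FES), 7.02 and 6.86 (SCI) and 7.55 and 7.58 (sham), with 3 of the 6 detected. The culture types did not overlap, and in both of them sham was highest. Dcn differed by 6.69 ± 0.31 (SE, adjusted p = 4.64e-05 by limma), at least 94.8-fold. Folds are bounds where osteoclast arrays did not detect a gene: such an array was set to the lowest level detected on it or the probe's own level, whichever was higher. Bgn, a collagen-binding protein that also activates Toll-like receptors when released, had 9.53 and 9.74 (SCI+FES), 10.19 and 10.31 (SCI) and 10.11 and 10.17 (sham) in osteoblast cultures. It was detected on no osteoclast array, where its level was 6.39 to 6.73. Bgn was at least 8.34-fold higher (3.49 ± 0.17, adjusted p = 5.09e-05 by limma), and its osteoblast pools varied little (SD 0.33, n = 3).

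Lum, a keratan sulfate proteoglycan best known for keeping cornea transparent, was detected on all 12 arrays. Its log2 levels were 14.26 and 14.24 on the SCI+FES, 14.37 and 14.33 on the SCI and 14.55 and 14.69 on the sham osteoblast arrays. On the osteoclast arrays they were 7.69 and 7.42 (SCI+FES), 7.43 and 7.46 (SCI) and 9.35 and 9.38 (sham). The osteoblast pools were the most alike of any member (SD 0.19, n = 3), whereas the sham osteoclast pool stood above the other osteoclast pools. Lum was 78.0-fold higher in osteoblast cultures (6.29 ± 0.49, adjusted p = 0.000251 by limma).

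The asporin and osteoglycin probes had the widest spread among osteoblast pools. Aspn, which binds collagen and TGF-beta and bears no sugar chain of the chondroitin sulfate kind, differed between culture types by 5.22 ± 0.79 (at least 24.0-fold, limma adjusted p = 0.00388), and the SD of its osteoblast pools was 1.77. Ogn, also called mimecan and first purified from bone, differed by 4.93 ± 0.80 (at least 14.7-fold, limma adjusted p = 0.00503), and that SD was 1.79. Neither was detected on any of the 6 osteoclast arrays.

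Prelp, which links collagen to heparan sulfate of basement membranes, was at least 2.85-fold higher in osteoblast cultures (2.19 ± 0.35, adjusted p = 0.00482 by limma). Fmod, which controls collagen fibril assembly in tendon and other connective tissue, was higher by 1.53 ± 0.32 (adjusted p = 0.0143 by limma). Omd, a bone matrix protein that binds hydroxyapatite, was higher by 1.11 ± 0.33 (adjusted p = 0.0470 by limma). Fmod was detected on only 5 and Omd on only 4 osteoblast arrays, so no lower bound on their folds is given. These last 2 calls depended on which pools were used. Omd lost its call when any pool except the SCI+FES osteoblast pool was left out (limma adjusted p 0.101 to 0.133). Fmod lost its call without the SCI osteoclast pool (limma adjusted p = 0.0523).

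**Figure D2:**
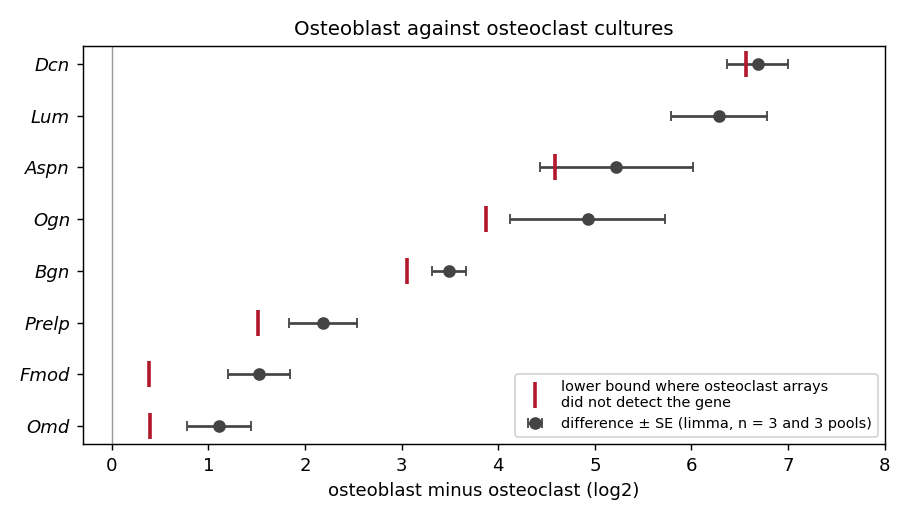
Osteoblast minus osteoclast difference (log2) of each member, with the standard error from limma over 3 and 3 pools. Red marks give the lower bound on the difference where osteoclast arrays did not detect the gene, and lie furthest below the point for Fmod and Ogn. For Fmod and Omd, which some osteoblast arrays did not detect either, the mark is not a true bound.

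The collagens that these proteins bind showed the same direction: 10 of 11 tested collagens were higher in osteoblast cultures and none lower (median measured difference 5.35, against -0.07 over all probes). Like the members, many of the genes counted or named here and in the next paragraph were not detected on some or all osteoclast arrays. Their folds are then bounds. Genes detected on no osteoclast array entered the test only through the osteoblast pools, so their calls are no support for a difference. Col3a1 was at least 74.8-fold higher (6.52 ± 0.39) and Col1a1 at least 44.7-fold (5.82 ± 0.38), each not detected on 4 of 6 osteoclast arrays. Of enzymes that build chondroitin and dermatan sulfate, 3 of 12 were higher and none lower (Csgalnact1 1.84 ± 0.23, at least 2.38-fold, Chpf 1.44 ± 0.18 and Chpf2 1.30 ± 0.17, which start and lengthen the chains). Of keratan sulfate and tyrosine sulfation enzymes, 1 of 7 was higher (the galactosyltransferase B4galt4, 1.54 ± 0.28, at least 2.78-fold) and 1 lower (the sulfotransferase Chst1, -1.13 ± 0.28). Most of the sugar-chain enzymes therefore did not pass the call.

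Among proteases that process or cleave matrix proteins, 5 of 12 were higher and 2 lower in osteoblast cultures. The protease list, here and below, also counts Pcolce, an enhancer of procollagen processing rather than a protease. Pcolce was at least 47.7-fold higher (5.90 ± 0.27). The osteoclast gelatinase Mmp9 (-6.36 ± 0.25) and the collagen-degrading cathepsin Ctsk (-2.57 ± 0.26) were lower. Of receptors and ligands that bind small proteoglycans, 4 of 14 were higher and none lower, namely Ccn2 (5.18 ± 0.24), Ccn4 (3.59 ± 0.15, at least 7.85-fold), Tgfb2 (2.32 ± 0.26, at least 4.19-fold) and Tgfb3 (2.25 ± 0.26, at least 3.80-fold). Ccn4 was not detected on 6 of 6, Tgfb3 on 5 and Tgfb2 on 4 osteoclast arrays. Of other proteoglycan core proteins, Sdc2 (5.55 ± 0.25, at least 38.5-fold), Gpc4 (2.92 ± 0.15, at least 5.71-fold) and Cspg4 (1.11 ± 0.29, at least 1.60-fold) were higher and the syndecan Sdc1 was lower (-1.39 ± 0.17), out of 8 tested. Among 9 matched relatives of the members, 3 were tested and Podnl1 was called (2.24 ± 0.11, at least 3.37-fold).

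The second comparison, in osteoblast cultures, was SCI+FES against SCI. SCI rats received no stimulator, so in either culture type the inserted stimulator and the stimulation cannot be told apart. Nor can a difference in collection time, since no collection week was stated for SCI+FES rats. All 8 members were lower in the SCI+FES pool, and 4 were lower by at least 2-fold: Aspn, Ogn, Omd and Fmod. With 1 pool on each side there is no test. A gene was called by size where pool means lay at least 2-fold apart and both arrays of one pool lay above both of the other, with detection on both arrays of at least 1 pool. By this rule 1.47% of 8357 probes were lower and 1.69% higher, with a median difference of 0.01. The ± value of a treatment difference is a standard error between duplicates, which leaves out the spread between rats and cultures.

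Aspn had log2 levels of 9.57 and 9.43 on the SCI+FES arrays, against 12.38 and 12.34 on the SCI arrays, while sham arrays had 12.77 and 12.71. The SCI+FES pool lay far below both others, and the SCI and sham pools were close together. Aspn was 7.28-fold lower than in SCI (-2.86 ± 0.07), the fifth lowest of the probes tested. Ogn had 8.78 and 8.88 on the SCI+FES arrays, against 11.28 and 11.38 on the SCI arrays and 12.33 and 12.29 on the sham arrays. Its 3 pools were well apart, in the order SCI+FES, SCI, sham from low to high, and it was 5.67-fold lower than in SCI (-2.50 ± 0.07, rank 11 from the lowest).

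Omd had 6.60 and 6.51 on the SCI+FES arrays, which did not detect it, against 7.90 and 8.06 on the SCI arrays and 7.45 and 7.52 on the sham arrays. Here the SCI pool was highest, and Omd was at least 2.26-fold lower in SCI+FES (-1.42 ± 0.10). Fmod had 6.73 and 6.78 on the SCI+FES arrays, of which 1 detected it, against 8.02 and 8.20 on the SCI arrays and 7.18 and 7.10 on the sham arrays. Fmod thus had the same order of pools as Omd and was at least 2.47-fold lower in SCI+FES (-1.35 ± 0.10). Both are dim probes whose differences depend on the background offset: with neqc normalization they were -2.49 for Omd and -2.27 for Fmod.

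The other members differed by under 2-fold. Bgn differed by -0.61 ± 0.12, Dcn by -0.46 ± 0.09, Prelp by -0.21 ± 0.11 and Lum by -0.11 ± 0.02. For Prelp, with 8.01 and 7.82 on the SCI+FES arrays against 8.18 and 8.07 on the SCI arrays, the arrays did not overlap but the gap was under 2 standard errors. The differences thus spanned 7.28-fold lower for Aspn to 1.08-fold lower for Lum. All 8 differences kept their sign in each of the alternative normalizations and filters run.

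The other genes on chromosome 17 beside the Ogn, Omd and Aspn group, chosen after the values were seen, did not pass the rule: Nol8 differed by 0.15, Ippk by 0.09 and Ecm2, a relative of the members, by -0.49. On chromosome 7 Btg1, beside Dcn and Lum, differed by 0.32. On chromosome 13 Btg2, beside Fmod, differed by 0.04.

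**Figure D3:**
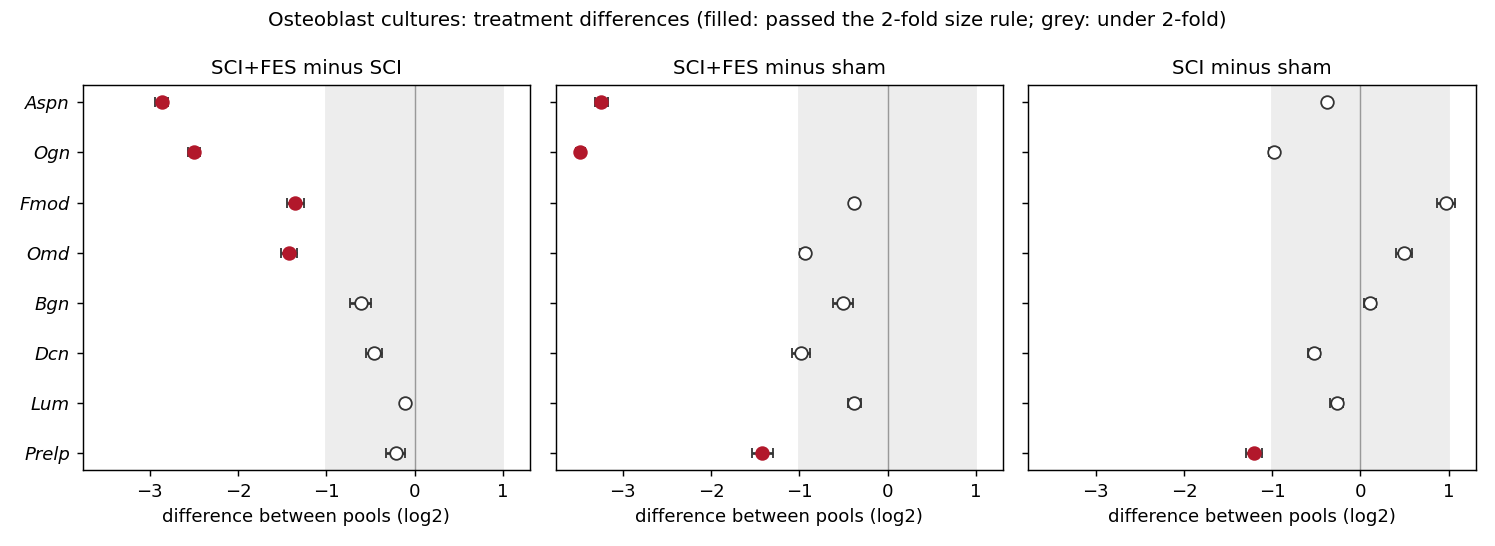
Differences between osteoblast pools (log2) for SCI+FES minus SCI, SCI+FES minus sham, and SCI minus sham, with the standard error over duplicate arrays (array error only). Filled points passed the 2-fold size rule and the grey band spans under 2-fold. The 3 panels share pools. Aspn and Ogn lie furthest left in both SCI+FES panels, and Prelp is the called member in SCI minus sham.

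In the same comparison 4 of 10 tested collagens were lower and none higher (median -0.77): Col11a1 (-2.09 ± 0.12), Col6a3 (-1.68 ± 0.08), Col1a1 (-1.41 ± 0.09) and Col6a1 (-1.20 ± 0.01). Col1a2 differed by -0.15 ± 0.07. No protease of 11 passed the rule, and no keratan sulfate or tyrosine sulfation enzyme of 7. Of 11 chondroitin and dermatan sulfate enzymes 1 was lower, the chondroitin sulfotransferase Chst13 (-1.52 ± 0.05, at least 1.98-fold). Of 8 other proteoglycan cores 1 was lower, Cspg4 (-1.08 ± 0.19). Of 13 receptors and ligands 1 was higher, the Toll-like receptor co-receptor Cd14 (1.16 ± 0.07), whereas Tgfb3 (-0.97 ± 0.09) and Bmp2 (-0.98 ± 0.0048) stayed under the 2-fold limit.

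Marker lists of the cultured and of other cell types were also described for these pools. Of 11 tested osteoblast markers 8 were lower in SCI+FES than in SCI (median -2.29), for example Panx3 by at least 32.8-fold (-5.45 ± 0.04) and Ifitm5 by at least 15.1-fold (-4.25 ± 0.02), neither detected on the SCI+FES arrays. The summed level of the list was 31272 to 32343 on SCI+FES arrays, against 53149 to 53535 on SCI arrays. Spp1 (14.2 in SCI+FES, 14.16 in SCI) and Sparc (13.46 and 14.39), neither of them called, weigh most in that sum. Of 9 T cell genes 7 were higher (median 1.62, Il2ra 2.42 ± 0.08), with sums of 10404 to 10748 against 3251 to 3388. Of 14 macrophage markers 3 were higher (Cd163 1.47 ± 0.09), with sums of 117361 to 122411 against 86844 to 88646. Of 8 tested osteoclast markers 1 was higher, the carbonic anhydrase Car2 (1.99 ± 0.02). Of 13 stromal and fibroblast genes 1 was lower, Thy1 (-1.13 ± 0.05), with a list median of -0.33 and sums of 67165 to 67527 against 77920 to 80225. Of 7 smooth muscle genes 3 were lower (Smtn -1.76 ± 0.13), with sums of 27511 to 27847 against 44565 to 45351. Of 5 tested adipocyte genes none was called. The part of these cell types in the proteoglycan differences was not tested.

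**Figure D4:**
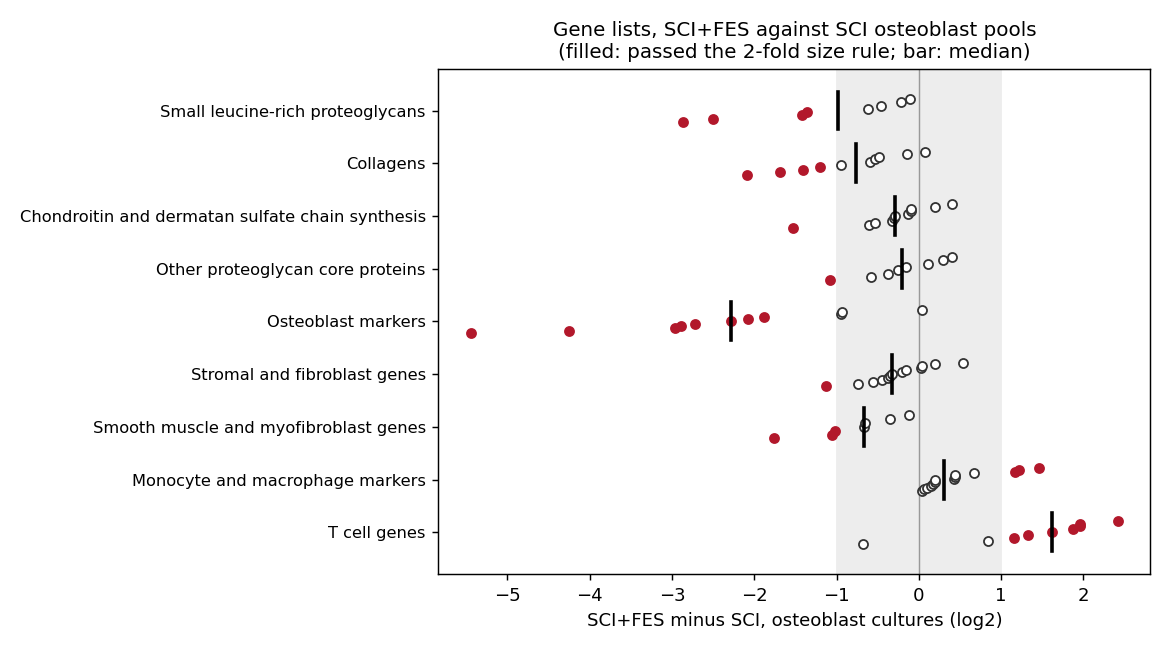
Difference SCI+FES minus SCI in osteoblast cultures (log2) for each tested gene of 9 lists. Filled points passed the 2-fold size rule and bars are list medians. Osteoblast markers lie far to the left and T cell genes to the right, while stromal genes sit near 0.

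The third comparison, in osteoblast cultures, was SCI against sham. Of the 8 members 1 was called, Prelp, which was 2.30-fold lower in SCI (-1.20 ± 0.09), where 1.38% of 8460 probes were lower and 1.97% higher. Prelp had 8.18 and 8.07 on the SCI arrays, against 9.40 and 9.26 on the sham arrays. Fmod (0.97 ± 0.10) and Ogn (-0.98 ± 0.05) lay just inside the 2-fold limit in opposite directions. Fmod passed it with neqc (1.48), with log2 of the signal plus 16 (1.47) and on the authors' matrix values (1.14), and Ogn with a common median (-1.11).

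The remaining members differed by less: Omd by 0.49 ± 0.09, Dcn by -0.52 ± 0.07, Aspn by -0.38 ± 0.04, Lum by -0.27 ± 0.07 and Bgn by 0.11 ± 0.07. The sign of Lum turned on the authors' matrix values (0.07) and that of Bgn with a common median (-0.17). Fmod and Omd were thus highest in the SCI pool, while Prelp, Ogn, Dcn, Aspn and, except on the matrix values, Lum were highest in the sham pool. Of osteoblast markers 7 of 11 were higher in SCI (median 1.65, Panx3 4.34 ± 0.07). Of 11 collagens 1 was lower, Col14a1 (-1.63 ± 0.03), and of 11 proteases the aggrecanase Adamts5 (-1.30 ± 0.13) and Mmp9 (-1.01 ± 0.04) were lower. Chst13 was higher (1.30 ± 0.02, at least 2.00-fold) and so was Cspg4 (1.04 ± 0.19). Of 13 stromal genes 1 was lower, Postn (-1.13 ± 0.11). Of 8 T cell genes 2 were higher in SCI (median 0.86): Cd3d by at least 2.25-fold (1.37 ± 0.04) and Cd3g by at least 2.35-fold (1.30 ± 0.13), of which the sham arrays detected Cd3d on 0 and Cd3g on 1 of 2. Sums of the T cell list were 3251 to 3388 on SCI and 2884 to 2978 on sham arrays. Their part was not tested. Injury, the implant surgery given for SCI but not for sham rats, and the later collection of SCI rats cannot be told apart.

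Against sham, the SCI+FES osteoblast pool had 3 members called lower, where 3.28% of 8608 probes were lower and 4.22% higher. Ogn was 11.2-fold lower (-3.48 ± 0.05, the third lowest probe), Aspn 9.46-fold lower (-3.24 ± 0.08, the fifth lowest) and Prelp 2.67-fold lower (-1.42 ± 0.12). Dcn (-0.98 ± 0.10) and Omd (-0.93 ± 0.06) lay just short of the limit, and Omd passed it under each of the 4 other normalizations. Bgn (-0.51 ± 0.11), Lum (-0.38 ± 0.07) and Fmod (-0.38 ± 0.05) differed less. The 3 osteoblast comparisons share pools and are not independent of each other. For SCI+FES against sham, injury, implant, stimulation and collection time cannot be told apart. In this comparison 5 of 11 collagens were lower, with Col11a1 at -2.09 ± 0.13. So were 3 of 12 genes of the protease list (Adamts5 -1.24 ± 0.15, Ctsk -1.10 ± 0.06, Pcolce -1.03 ± 0.09). Ecm2 was also lower (-1.01 ± 0.17, at least 1.92-fold). Of osteoblast markers 5 of 9 and of stromal genes 4 of 13 were lower, while 8 of 9 T cell genes and 3 of 14 macrophage markers were higher, as was the osteoclast marker Car2 (2.34 ± 0.06), and their part was not tested either.

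In osteoclast cultures 6 members were not detected on any array and no difference is given for them. Lum was lower by 3.78-fold in SCI than in sham (-1.92 ± 0.02), where 1.82% of 7815 probes were lower and 0.96% higher, and by 3.50-fold in SCI+FES than in sham (-1.81 ± 0.14), where 2.41% of 7796 were lower and 1.71% higher. Between SCI+FES and SCI it differed by 0.11 ± 0.14, which is within array error, where 0.316% of 7591 probes were higher and 0.0% lower. Dcn differed by -0.62 ± 0.08 (SCI minus sham, at least 1.51-fold) and -0.92 ± 0.24 (SCI+FES minus sham, at least 1.50-fold), both short of 2-fold. It was detected on 1 of 2 SCI arrays and no SCI+FES array. With neqc the same differences were -1.103 and -1.675, past 2-fold. Whether the Lum difference in osteoclast cultures exceeds that in osteoblast cultures (-0.27 ± 0.07 for SCI minus sham) was not tested.

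Of 6 tested collagens 2 were lower in SCI+FES and in SCI than in sham osteoclast cultures. Col1a2 was lower in SCI+FES (-2.43 ± 0.16) and in SCI (-2.26 ± 0.14). Col3a1 was not detected in either pool and was at least 1.78-fold lower in SCI+FES (-1.38 ± 0.13) and at least 1.83-fold lower in SCI (-1.20 ± 0.19). Summed collagen levels were 1332 to 1361 on SCI+FES, 1443 to 1494 on SCI and 3250 to 3522 on sham osteoclast arrays. Of 7 tested stromal genes 3 were lower in SCI (Fstl1 -1.58 ± 0.03, Gja1 -1.16 ± 0.03, and Postn, not detected in SCI, -1.26 ± 0.09 or at least 1.50-fold), whereas fibronectin, Fn1, was higher (1.69 ± 0.06). The stromal sum ran the other way, at 4568 to 4625 on SCI+FES, 4477 to 4699 on SCI and 3250 to 3312 on sham arrays. Fn1 weighs most in that sum, with the highest level of the list in each pool (11.41, 11.33 and 9.64 in the same order). The median difference of the tested stromal genes was -0.73 for SCI minus sham and -0.73 for SCI+FES minus sham. The macrophage genes Adgre1, C1qb and C1qc were higher in SCI by 1.99, 1.18 and 1.07, and the protease Mmp12 was lower (-1.81 ± 0.10). The SCI osteoclast cultures carried no culture day in the labels, and their descriptions share a number with the SCI+FES ones. The part of other cell types and of culture time was not tested.

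**Figure D5:**
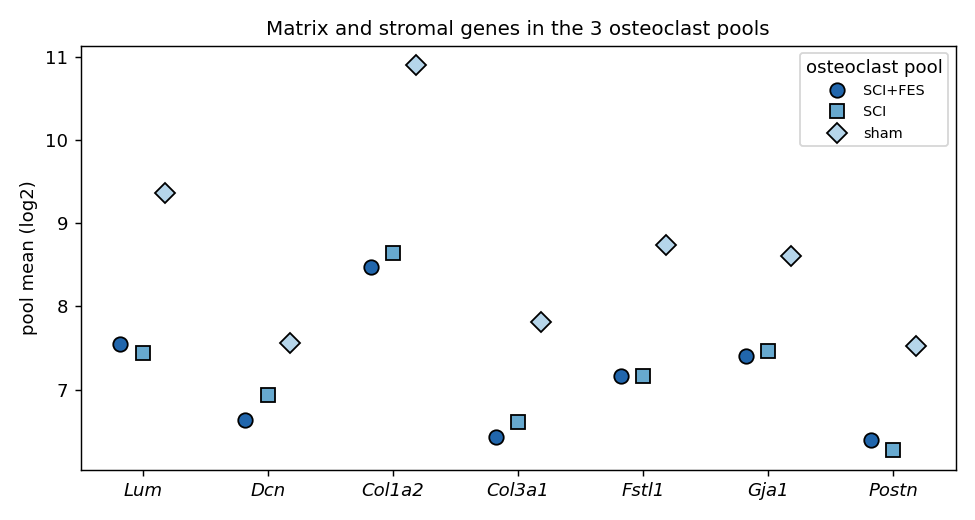
Pool means (log2) of Lum and Dcn and of 5 collagen and stromal genes, chosen after their values were seen, in the SCI+FES, SCI and sham osteoclast pools. In each of the 7 genes, picked for this, the sham pool is highest. Fn1 and Fbln1 of the stromal list, which are not drawn, were lowest in the sham pool. Col3a1 and Postn were not detected in the other pools, where Dcn was detected on only 1 SCI array and no SCI+FES array.

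Likeness of pattern was described for the 8 members over the 6 pool means, each centred on its own mean, as a root mean square difference (RMS, log2) among 8909 genes. The gene nearest to Aspn was Ogn and the reverse (RMS 0.25), followed for both by Col11a1 (0.37 and 0.48) and by Sncg (0.48 and 0.52). For Dcn they were Col3a1 (0.21), the gap junction gene Gja1 (0.21) and Tagln (0.23), and for Lum Gja1 (0.28), Col3a1 (0.29) and Fstl1 (0.31). For Fmod they were Tmem178 (0.13), RGD1564664 (0.15) and Mmp16 (0.16), and for Omd Slc6a15 (0.12), Slc2a5 (0.16) and Podxl2 (0.19). For Bgn they were Sc65 (0.10), Gpr176 (0.15) and C1qtnf5 (0.15), and for Prelp Myh10 (0.13), Casp12 (0.13) and Pcdh19 (0.17). Over the 3 osteoblast pools alone the nearest pairs of members were Lum and Bgn (0.22), Fmod and Omd (0.25), Aspn and Ogn (0.25) and Dcn and Lum (0.25). Small differences between pools make a small RMS for dim genes, so the values are descriptions and not ranks between members. The gap between culture types weighs heavily in the RMS over 6 pools, and a near gene can still differ from a member between treatments. Tagln differed by 0.12 for SCI minus sham osteoblast cultures, where Dcn differed by -0.52.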

How the data were processed

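RNA pools from rat marrow cultures were labelled as biotinylated cRNA and run on Illumina arrays, per the labels' protocols. Per the file headers, the deposited values are, by array, a probe's intensity and its detection p-value. On each array 26.8% to 30.4% of intensities were negative, so a background had been subtracted. The scanner software was not named in these labels. The authors' series matrix holds intensity values that are a straight-line rescaling of the same arrays (r = 1, slopes 0.731 to 1.42, column medians 13.8 to 19.1). Its scale is linear and its direction the same, while the rule for slope and shift stays unknown.

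From the intensities, levels were computed with limma 3.58.1 in R 4.3.3: normexp with an offset of 50, quantile normalization and log2. The plan had neqc as the first choice for uncorrected signals, and this is its fallback for corrected ones. The offset understates folds of dim genes. Probes were named by the file's symbol, updated through the RefSeq table, and a gene with several probes was represented by 1.

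The 2 arrays of a pool were averaged. Culture types were compared by limma over 6 pools, and treatments by the 2-fold size rule without a test. The number of arrays and pools limits the precision, and signal over background limits dim probes. Numbers shared by arrays did not pair them (r of deviations -0.03 to 0.04 over 15 pairs of pools). Members and lists were chosen with earlier results of these data known. Named were all members, up to 3 called genes of each list and direction (5 between culture types) and the 3 genes most like each member. Named outside that rule, after values were seen, were genes under the limit given for contrast and chromosomal neighbours. Alternatives were other background corrections and normalizations, the authors' matrix, other detection filters, leaving out arrays or pools, and a block. The limma fit between culture types was tested on simulated data, and the size rule was not. Figures used Python 3.11.15 and matplotlib 3.10.9.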

Additional observations from a re-analysis of the deposited data

How the results depend on the processing

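Of 214 recomputed differences of called members, 205 kept their call, 9 lost it and 0 turned their sign. Of 209 of members tested but not called, 19 gained a call and 4 turned: in SCI against sham osteoblast cultures Bgn with a common median (-0.17) and Lum on the matrix (0.07), and in SCI+FES against SCI osteoclast cultures Lum with a common median (-0.10) and without SCI+FES array 1 (-0.03). The 4 members lower in SCI+FES than in SCI osteoblast cultures stayed called in all alternatives, and 0 members were called between those osteoclast pools. In SCI against sham osteoblast cultures the count of 1 was 2 with neqc, with log2 of the signal plus 16 and on the authors' matrix (Fmod added), and 2 with a common median (Ogn added). In osteoclast cultures it was 2 with neqc and log2 plus 16 for SCI against sham, and 2 with neqc, log2 plus 16 and the matrix for SCI+FES against sham, Dcn being added each time. Leaving out an array gave 1 to 2 (SCI against sham, osteoblast), 3 to 4 (SCI+FES against sham, osteoblast) and 1 to 2 (SCI+FES against sham, osteoclast): Fmod was added without SCI osteoblast array 1 or sham osteoblast array 1, Ogn without SCI osteoblast array 2, and Dcn without SCI+FES osteoblast array 1, sham osteoblast array 2 or SCI+FES osteoclast array 1. Leaving out a pool gave 6 to 8 members between culture types, and 7 were called with neqc, a detection p of 0.05 or no filter, Omd being lost (adjusted p 0.0584, 0.0503 and 0.0730 by limma). A replicate block, by treatment between culture types and by array number otherwise, left the counts at 8, 1, 4, 3, 1, 0 and 1. The cause of these shifts was not tested.

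Over all probes, counts of higher and lower calls were 245 and 262 with neqc against 141 and 123 for SCI+FES against SCI in osteoblast cultures, 579 and 534 against 363 and 282 for SCI+FES against sham, and 315 and 230 against 167 and 117 for SCI against sham. In osteoclast cultures they were 64 and 10 against 24 and 0, 321 and 389 against 133 and 188, and 193 and 299 against 75 and 142. Log2 plus 16 gave 258 and 273, 607 and 567, 328 and 256, 65 and 16, 330 and 408, and 200 and 312 in the same order, and between culture types 896 and 707 against 597 and 442. A common median moved the median difference over all probes by 0.07, -0.13 and -0.21 in osteoblast and by -0.34, -0.41 and -0.09 in osteoclast cultures, and by 0.14 between culture types, where its split was 708 and 323. Its splits in the order above were 163 and 93, 291 and 418, 95 and 216, 14 and 3, 50 and 694, and 62 and 215. Dim probes (Fmod and Omd, and Dcn in osteoclast cultures) are limited by signal over background.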
